A study of Mus musculus with 9 samples.

Results

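The genes described here are the subunits of the transcription factor NF-kB and the inhibitors that act back on it, in a mouse angiosarcoma line treated with the beta-adrenergic blocker propranolol. They are a list of named genes: Rela, Relb, Nfkb1 and Nfkb2 for the subunits, Nfkbia, Nfkbib, Nfkbie and Bcl3 for the IkB family, and Tnfaip3 and Birc3 for regulators of the signal that leads to NF-kB. Of these 10 genes, 9 have a named probe on the array (10 of 25697 probes) and 8 were detected well enough to be tested, among 7969 genes tested in all. Nfkb1 was not analysed here, because no probe carries its name in the annotation used, and Birc3 was not detected on any of the 9 arrays.

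SVR cells, a mouse endothelial line that forms angiosarcomas, were measured as 3 arrays of sham-treated cells labelled 0 h, 3 arrays of cells given 50 µM propranolol for 4 h and 3 arrays of cells given 50 µM for 24 h. The study's methods give another dose than these labels, and a sham treatment as long as the drug treatment, so whether the sham cells were matched in time to the treated cells is not settled. All groups are the same line grown to confluence. The methods pool the RNA of biological replicates before labelling, so the spread between arrays, and every p-value from it, may be technical. Each value given for a member is its probe's brightness in intensity units, averaged over 22 to 59 beads on that array.

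NF-kB is a dimer of Rel proteins. Rela and Relb carry the domain that activates transcription, whereas the products of Nfkb1 and Nfkb2 are cut from longer precursors. In resting cells the IkB proteins, encoded by Nfkbia, Nfkbib and Nfkbie, hold the dimers in the cytoplasm. Signals from cytokine and pattern receptors activate the IKK kinase, IkB is degraded, and the freed dimers enter the nucleus and bind kappaB sites. Several of the genes that they switch on encode their own brakes, among them Nfkbia and Tnfaip3 (the ubiquitin-editing enzyme A20). In endothelial cells this pathway is known for switching on adhesion molecules and chemokines during inflammation.

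Since several of these genes are known targets of NF-kB, the promoters of Nfkbia and Nfkbie, the IkB genes that rose, and of Nfkb2, a subunit gene that was not called, are shown. They are from RefSeq on GRCm38.p6 and run 5′ to 3′ over the 250 bases before and 50 after a gene's start, with matches to the 10-base kappaB consensus (searched on both strands, overlaps joined) in capitals. The windows lie at chr12:55492598-55492897 (minus strand), chr17:45555450-45555749 (plus strand) and chr19:46304487-46304786 (plus strand, 1 of 3 listed starts of Nfkb2).
Nfkbia: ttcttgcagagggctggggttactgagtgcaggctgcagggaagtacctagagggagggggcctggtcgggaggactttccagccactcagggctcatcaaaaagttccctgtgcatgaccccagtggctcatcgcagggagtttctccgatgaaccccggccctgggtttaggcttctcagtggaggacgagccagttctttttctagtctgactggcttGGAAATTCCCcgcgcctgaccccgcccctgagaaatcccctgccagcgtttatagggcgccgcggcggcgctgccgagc
Nfkbie: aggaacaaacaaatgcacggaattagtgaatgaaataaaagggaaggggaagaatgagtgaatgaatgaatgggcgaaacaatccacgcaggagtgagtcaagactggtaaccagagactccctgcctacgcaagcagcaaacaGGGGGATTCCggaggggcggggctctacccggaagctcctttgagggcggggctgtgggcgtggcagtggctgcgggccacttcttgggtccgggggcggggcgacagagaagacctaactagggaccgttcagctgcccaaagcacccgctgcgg
Nfkb2: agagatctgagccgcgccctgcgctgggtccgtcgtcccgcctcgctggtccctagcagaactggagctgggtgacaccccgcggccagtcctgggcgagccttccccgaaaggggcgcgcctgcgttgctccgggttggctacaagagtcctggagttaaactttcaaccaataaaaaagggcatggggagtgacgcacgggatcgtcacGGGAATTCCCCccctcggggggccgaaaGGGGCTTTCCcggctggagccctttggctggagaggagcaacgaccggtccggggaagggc

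In Nfkbia the match begins 29 bases before the start and in Nfkbie 106 bases before it. This Nfkb2 window holds 3 matches, which begin 39, 38 and 11 bases before the start, the first 2 of them overlapping. Among the members, 8 genes have an entry and 5 of them (Nfkbia, Nfkbie, Nfkb2, Tnfaip3 and Bcl3) have a match in at least 1 window, against 5.14% of 27025 genes in the table. By window the count is 7 of 11, against 4.51% of 32851. Windows of Nfkb2 overlap in part: the GGGACTTTCC that begins 11 bases after a start is also counted 225 bases before another start. Several members are known NF-kB targets, so these shares describe the list and test nothing about it. Tnfaip3 has a match that begins 12 bases before a start (GGAAATCCCC), and that of Bcl3 begins at base 3 after its start (GGGAAGTCCC). No match was found in the windows of Rela, Nfkbib and Birc3, and Relb is named only. A match is a stretch of letters and was not tested as a binding site.

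Across the series, the mean signal per array lay between 306.5 and 387.7 intensity units and 11454 to 12245 probes were detected above the negative controls. Of 9 named endothelial markers, 7 (among them Cdh5, Pecam1, Tie1 and Tek) were detected on every array, while the lymphoid list and, except for Cd14, the myeloid list had no member detected on all arrays of a group. The summed signal of the endothelial list was 15217 to 17780 at 24 h, against 6759 to 8658 in sham (6555 to 8160 at 4 h). That list therefore moved with the 24 h group in which the members below differ, and its part in the results was not tested. The myeloid sum was 647 to 707 at 24 h, against 592 to 693 in sham. The fibroblast sum was 508 to 546 at 24 h, against 451 to 542 in sham, and the epithelial sum 357 to 395 at 24 h, against 460 to 637 in sham. Of the myeloid list, Ptprc, Itgam, Adgre1, Lyz2 and Tyrobp were detected on no array. Fcer1g was detected on no sham or 4 h array, but on some, not all, of the 24 h arrays. Of the fibroblast list Pdgfra, and of the epithelial list Krt18, were detected on every array. Krt8 was detected on all arrays at 4 h and at 24 h. The endothelial markers Kdr and Erg were detected on no treated array. One 24 h array, replicate 3, was run on another BeadChip than the remaining 8.

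After 24 h of propranolol, 3 of the 8 tested members rose and none fell. These were Nfkbia (3.01-fold), Relb (2.2-fold) and Nfkbie (1.53-fold), under limma's linear model over all 9 arrays with Benjamini-Hochberg adjustment, where a call needs an adjusted p under 0.05 and a change of at least 1.5-fold. Among all genes tested, 24.7% were called and 13.6% were called higher. On the adjusted p alone, 6 of 8 members were higher (30.4% of all genes), and after normalization the arrays of 5 lay above sham without overlap (33.1% of all genes did). In the signals before normalization 4 members lay above sham without overlap and 1, Nfkbib, below it. The median change of the tested members was 0.50 on the log2 scale, beside -0.02 for all genes. Bcl3 and Tnfaip3 passed the detection filter only through the 24 h arrays, so these counts and the median lean towards higher values by construction and are given as a description.

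**Figure D1:**
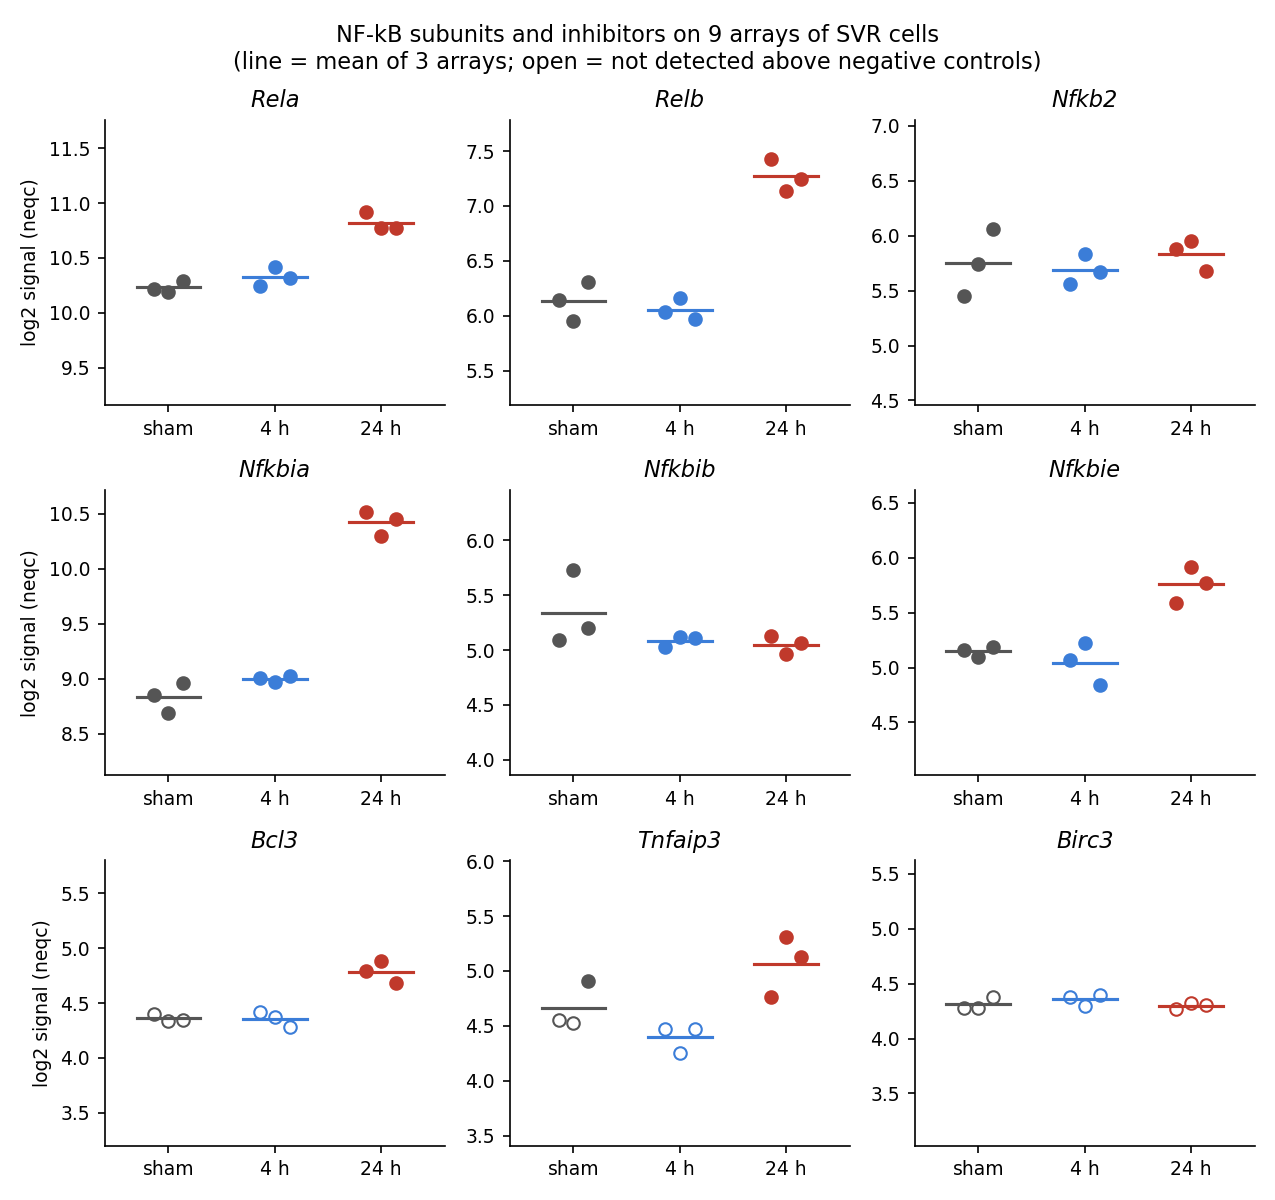
Background-corrected, quantile-normalized log2 signal (y axis) of 9 members on the 3 sham, 3 propranolol 4 h and 3 propranolol 24 h arrays (x axis), with 1 point per array, a line at the group mean, and open points where the probe was not detected. All panels span the same range of log2 units. Nfkbia, Relb and Nfkbie, and also Rela and Bcl3, which were not called, stand clear of sham and 4 h on all 3 arrays at 24 h. Birc3 is open throughout.

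Among the subunits, Rela encodes p65, which forms the commonest activating dimer with p50. Its signal was 1426, 1115 and 1541 intensity units on the sham arrays, 1382, 1343 and 1308 at 4 h, and 1953, 1734 and 1550 at 24 h. Every 24 h array exceeded every sham array, though the lowest at 24 h and the highest in sham were close before normalization. The normalized mean was 10.82 at 24 h and 10.24 in sham on the log2 scale, a difference of 0.58 ± 0.07 (SE, n = 3 each, 95% interval 0.42 to 0.74, adjusted p = 5.6e-05 by limma). That is just under the 1.5-fold limit, so Rela was not called, although it passed (0.61) when the third sham, the second 24 h or the third 24 h array was left out. Its difference was 0.31 when each array was centred on the median of the tested probes and 0.33 when signals were divided by the 75th percentile.

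Relb encodes the subunit that pairs with p52 in the non-canonical branch of the pathway. It read 152, 119 and 162 on the sham arrays, 145, 134 and 132 at 4 h, and 258, 222 and 211 at 24 h. The 24 h arrays all lay above the other 6 arrays, which overlapped one another. The change at 24 h was 1.14 ± 0.11 on the log2 scale (SE, n = 3 each, 95% interval 0.90 to 1.37, adjusted p = 7.5e-06 by limma). Without background correction it was 0.61, still past the limit.

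Nfkb2 encodes p100, the precursor of p52, which also holds Relb in the cytoplasm. Its arrays gave 124, 112 and 148 in sham, 125, 121 and 121 at 4 h and 136, 138 and 117 at 24 h, so the groups overlapped. The 24 h difference was 0.08 ± 0.14 on the log2 scale (SE, n = 3 each, 95% interval -0.24 to 0.40, adjusted p = 0.64 by limma), an interval that reaches neither a 1.5-fold rise nor a 1.5-fold fall. In the authors' normalized table it was 0.13 (adjusted p = 0.047 by limma), and against 4 h 0.15 (adjusted p = 0.031 by limma). That was the 1 of 21 alternative settings with an adjusted p under 0.05.

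Of the IkB genes, Nfkbia encodes IkB-alpha, which enters the nucleus after resynthesis and carries NF-kB back out. Signals of 581, 424 and 636 were read in sham, 631, 531 and 567 at 4 h, and 1532, 1288 and 1284 at 24 h. The lowest 24 h array (1284) lay well above the highest sham array (636), so the groups did not overlap. The normalized means were 10.42 ± 0.11 at 24 h and 8.83 ± 0.14 in sham (log2 scale, SD, n = 3 each), a change of 1.59 ± 0.08 (SE, 95% interval 1.40 to 1.77, adjusted p = 1.4e-07 by limma). It was the largest change among the 8 tested members.

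Nfkbie encodes IkB-epsilon, whose resynthesis is slower than that of IkB-alpha. The probe that could be tested read 116, 96 and 115 in sham, 111, 104 and 100 at 4 h, and 124, 137 and 121 at 24 h. All 24 h arrays were above all others, yet the signals lie close to background. The change was 0.61 ± 0.11 on the log2 scale (SE, n = 3 each, 95% interval 0.37 to 0.85, adjusted p = 0.00068 by limma), which is called by a narrow margin. It was not called without the second 24 h array (0.53), nor without background correction (0.20), nor in the authors' normalized table (0.30), where the adjusted p stayed under 0.05. A second Nfkbie probe was detected on 1 of 9 arrays, the first at 24 h, and was not tested.

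Nfkbib, which encodes IkB-beta, read 114, 111 and 116 in sham, 110, 102 and 105 at 4 h, and 109, 104 and 100 at 24 h. Its difference at 24 h was -0.29 ± 0.14 on the log2 scale (SE, n = 3 each, 95% interval -0.60 to 0.02, adjusted p = 0.094 by limma). Before normalization all 3 arrays at 24 h, and all 3 at 4 h, lay below all sham arrays, whereas the normalized values overlapped. The interval reaches past a 1.5-fold fall, and the adjusted p was 0.025 without the first sham array (-0.42) and 0.037 after division by the 75th percentile (-0.14).

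Bcl3 encodes a nuclear IkB protein that can act as a coactivator with p50 or p52 dimers. It read 97, 83 and 95 in sham, 96, 87 and 87 at 4 h, and 100, 102 and 93 at 24 h, with overlap. It was detected on all 3 arrays at 24 h and on none of the other 6. The fitted difference was 0.42 ± 0.07 (SE, n = 3 each, adjusted p = 0.00046 by limma), under 1.5-fold, and the adjusted p was 0.3 after division by the 75th percentile. Because no sham array measured it, only a bound holds: on the background-corrected scale it was at least 1.09-fold of sham, counting a sham array at the lowest level any detected probe reached there.

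Tnfaip3 encodes A20, which removes activating ubiquitin chains upstream of IKK. Signals were 101, 87 and 109 in sham, 98, 83 and 93 at 4 h, and 100, 114 and 102 at 24 h. It was detected on all 3 arrays at 24 h, on 1 in sham and on none at 4 h, and the 24 h and sham arrays overlapped. The 24 h difference of 0.40 ± 0.15 (SE, n = 3 each, 95% interval 0.08 to 0.73) had an adjusted p of 0.036 by limma and was under 1.5-fold. That p was 0.05 or more in 10 of 20 alternative settings, up to 0.47, and ranged from 0.0059 to 0.14 when single arrays were left out.

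Birc3, which encodes the ubiquitin ligase cIAP2, read 80 to 96 in sham, 85 to 95 at 4 h and 84 to 88 at 24 h. These values did not rise above the negative controls on any array, so no change can be given.

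**Figure D2:**
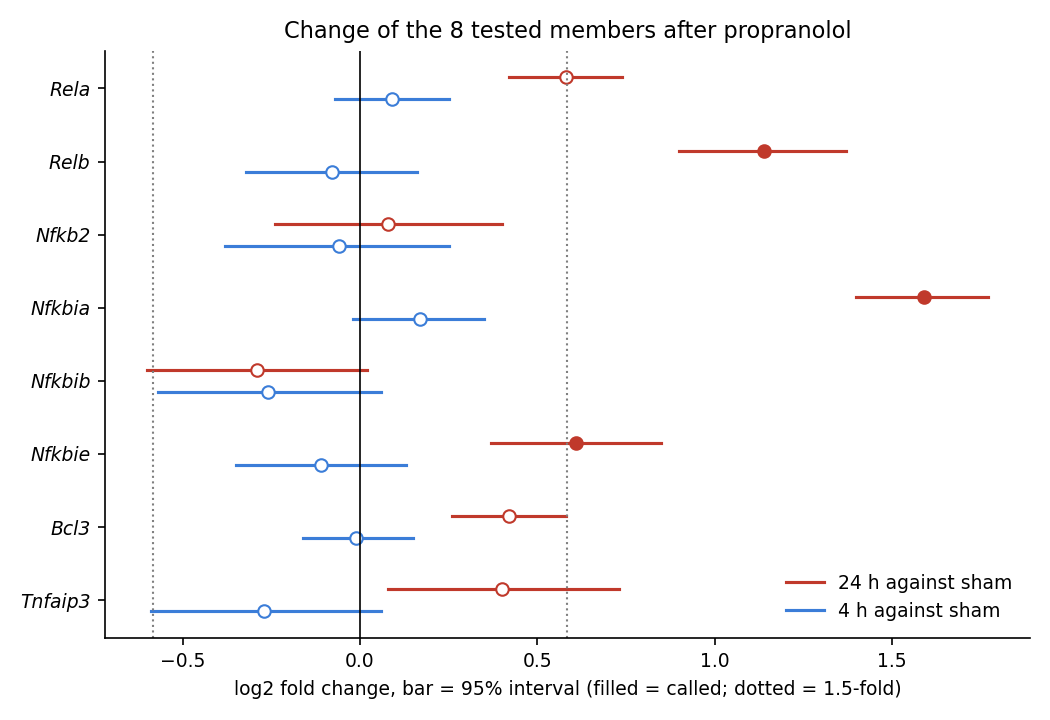
Log2 fold change (x axis) of the 8 tested members (y axis) at 24 h against sham (red, upper of each pair) and at 4 h against sham (blue), with 95% intervals from limma over 9 arrays; filled points passed the adjusted p and the 1.5-fold limit, drawn as dotted lines. Nfkbia, Relb and Nfkbie are filled at 24 h, and no point is filled at 4 h.

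At 4 h, the early time point of the same treatment, 0 of 8 members were called and 0 had an adjusted p under 0.05 by limma. Among all genes, 4.05% were called and 24.6% had such a p. The unadjusted p was under 0.05 for 0 members, and the methods' test also called 0. Differences from sham ran between -0.27 (Tnfaip3) and 0.17 (Nfkbia, adjusted p = 0.18 by limma) on the log2 scale, with a median of -0.07, beside 0.01 for all genes. For Relb the difference was -0.08 (adjusted p = 0.64), for Nfkbie -0.11 (adjusted p = 0.52) and for Rela 0.09 (adjusted p = 0.41).

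Setting the time points against each other, 4 of 8 members were called higher at 24 h than at 4 h, where 10.6% of all genes were. Without Tnfaip3 and Bcl3, which passed the filter only through the 24 h arrays, 3 of 6 were. Nfkbia differed by 1.42 on the log2 scale (adjusted p = 4.7e-07), Relb by 1.22 (adjusted p = 6.9e-06), Nfkbie by 0.72 (adjusted p = 0.00029) and Tnfaip3 by 0.67 (adjusted p = 0.0032), all by limma. Tnfaip3 was not detected at 4 h, so only a bound of at least 1.34-fold on the background-corrected scale holds, which is under the limit, and its fitted value was not called without the second 24 h array (0.55). Rela differed by 0.49 (adjusted p = 0.00024) and Bcl3 by 0.43 (adjusted p = 0.00051), both under 1.5-fold. These differences share the 24 h arrays with the comparison against sham.

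Background handling set the size of the change in dim members more than in bright ones. Some of the 21 alternative settings alter only the test, the filter or the fold limit and cannot move the size. Over all 21, the 24 h change lay between 1.28 and 1.65 for Nfkbia and between 0.59 and 1.22 for Relb, called in every one of them. For Nfkbie it was called in 14 of 20. The all-gene shares shrank too: at 24 h against sham, 7.23% of all genes were called higher without background correction, 5.84% after division by the 75th percentile, 8.55% in the authors' table and 5.51% at a 2-fold limit. The split of all called genes also moved with the scaling: 55.2% of them were higher in the fit reported here, 41.7% after division by the 75th percentile, 43.5% after centring on the median of the tested probes and 65% in the authors' table (68.1% at a 2-fold limit). At 24 h against 4 h it was 58.8%, with 47.6% after the 75th percentile and 74% in the authors' table, and at 4 h against sham 50.5%, with 38.5% after the 75th percentile.

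**Figure D3:**
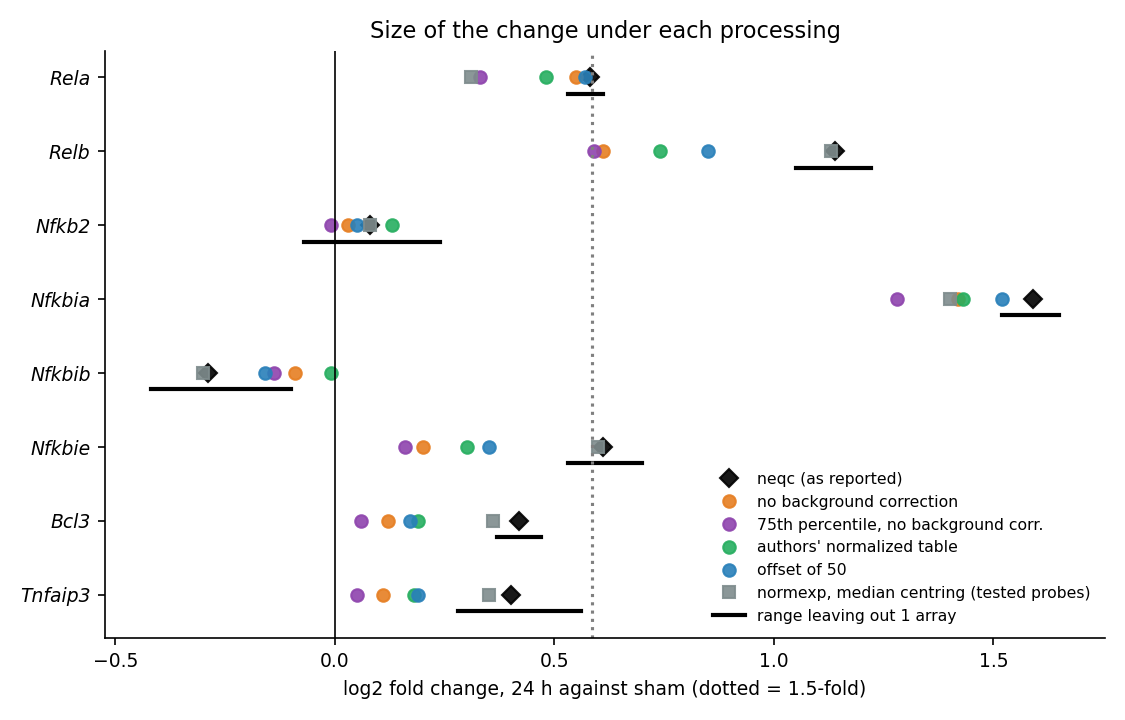
Log2 fold change at 24 h against sham (x axis) of the 8 tested members (y axis) under 6 ways of processing the signals, with black bars for the range when 1 array was left out and a dotted line at 1.5-fold. Nfkbia and Relb stay right of the line. The points of Rela lie on or left of it, and its bar (0.53 to 0.61) crosses it. Nfkbie, Bcl3 and Tnfaip3 shrink where the background was not removed.

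Genes that act around these members were read from a list of 40 regulators of the pathway, of which 36 have a named probe and 33 were tested. At 24 h, 7 rose (13.6% of all genes did) and 2 fell (11.1% did), and the median over the list was 0.25 on the log2 scale. Cd40, a receptor of the TNF receptor family that activates both branches, was the strongest, with signals of 345 to 369 at 24 h and 98 to 121 in sham (2.85 ± 0.07, SE, n = 3 each, adjusted p = 1.9e-09 by limma). Nfkbiz, a nuclear IkB protein, read 481 to 561 at 24 h and 160 to 199 in sham, a change of 2.05. Ikbkg, the scaffold subunit of IKK also called NEMO, changed by 2.02. Tnip1, a partner of A20, changed by 1.21 and Ikbke, an IKK-related kinase, by 0.95. Traf6, a ubiquitin ligase of receptor signalling, and Cd14, a coreceptor of Toll-like receptors, each changed by 0.65. Traf6 has 2 tested probes, and its call was lost when the probes of each gene were averaged. That left 6 regulators called higher (12.7% of all genes were).

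Rbck1, a subunit of the complex that builds linear ubiquitin chains, was lower by 0.72 (434 to 496 at 24 h, 622 to 840 in sham), and Nkrf, a repressor of NF-kB target genes, was lower by 0.71. Ikbkb, the kinase subunit IKK-beta, differed by 0.51, which is under the limit, and Map3k14, the kinase NIK, by -0.01. The other tested probes of Cd40 gave 2.55, 1.11 and 0.24, those of Ikbkg 1.82 and 0.84, and those of Tnip1 0.82, 0.65 and 0.42. All of these differences are positive, but their sizes disagree. Without background correction 5 regulators were called at 24 h in place of 9, and 4 were called in the authors' table. At 4 h, 0 of 33 regulators were called (4.05% of all genes were) and 7 had an adjusted p under 0.05 by limma (24.6% of all genes did).

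A list of 38 genes known to be switched on by NF-kB has 36 with a named probe and 22 tested. Those with a named probe that were not tested, among them Tnf, Il6, Il1b and Ccl20, were not detected on all 3 arrays of any group. The filter thus keeps targets that came on at 24 h and drops those that stayed undetected. Of the 22 tested, 15 were called higher and 0 lower at 24 h (13.6% of all genes were called higher). The median change of the 22 was 0.96 on the log2 scale. On the adjusted p alone, 16 were higher (30.4% of all genes) and 2, Bcl2l1 and Plau, were lower (30.4% of all genes). Icam1, Cxcl2, Ptgs2 and Lcn2 passed the detection filter only through the 24 h arrays, so their calls follow in part from that filter. Among the other 18, 11 were called higher and the median was 0.93. Among all genes that passed otherwise, 984 of 7611 were called higher. Fas, Psmb9 and Tap1, which are among those 11 targets, were not detected on all sham arrays. They passed only through the 4 h and 24 h arrays, so the 18 are not free of the filter either. After division by the 75th percentile 8 of the 22 were called higher (5.84% of all genes were). At a detection p under 0.01 on all arrays 6 of 13 targets were (13.5% of all genes). Without the detection filter 15 of 36 targets were (6.54% of all genes). Icam1, the leukocyte adhesion molecule, read 311 to 381 at 24 h and 90 to 104 in sham, where it was detected on 1 of 3 arrays (3.47 ± 0.12, SE, n = 3 each, adjusted p = 8.7e-09 by limma). Cxcl1, a neutrophil chemokine, read 3695 to 4338 at 24 h and 616 to 851 in sham, a change of 2.69. Cxcl10, a T cell chemokine also induced by interferon, changed by 2.66. Lcn2, an iron-carrier protein of the acute phase, read 139 to 181 at 24 h and 85 to 91 in sham, where it was not detected. On the background-corrected scale it was at least 3.05-fold higher at 24 h (adjusted p = 9.8e-07 by limma). Ier3, an early response gene, changed by 1.91. Cd40, Ikbkg, Icam1, Cxcl1 and Cxcl10 also stand in a list that the study drew up from these arrays, so they are not independent evidence of a direction.

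Not all known targets moved this way. Vcam1, another adhesion molecule, differed by 0.28 at 24 h, Sele (E-selectin) by -0.19 and Sod2 by -0.16. Bcl2l1 differed by -0.50 (adjusted p = 0.00046 by limma) and Plau by -0.24 (adjusted p = 0.006 by limma). None of these was called, since all were under 1.5-fold. At 4 h, 2 targets rose (2.05% of all genes did) and 4 fell (2.01% did), with a median of -0.04. The risers were Cxcl10 (0.67) and Fas (0.64), and those that fell were Csf1 (-1.03), Vcam1 (-0.82), Gadd45b (-0.78) and Plau (-0.61). Neither rise was called without background correction, after the 75th percentile, in the authors' table, with an offset of 50 or at 2-fold. Fas was detected on 2 of 3 sham arrays, and its other tested probe differed by only 0.24 at 4 h (adjusted p = 0.14 by limma). Averaging the probes of each gene left 1 target called higher. Targets called lower numbered 2 without background correction and 1 at 2-fold. They numbered 3 after the 75th percentile, in the authors' table and with an offset of 50. Both lists were written with earlier results of these arrays known.

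**Figure D4:**
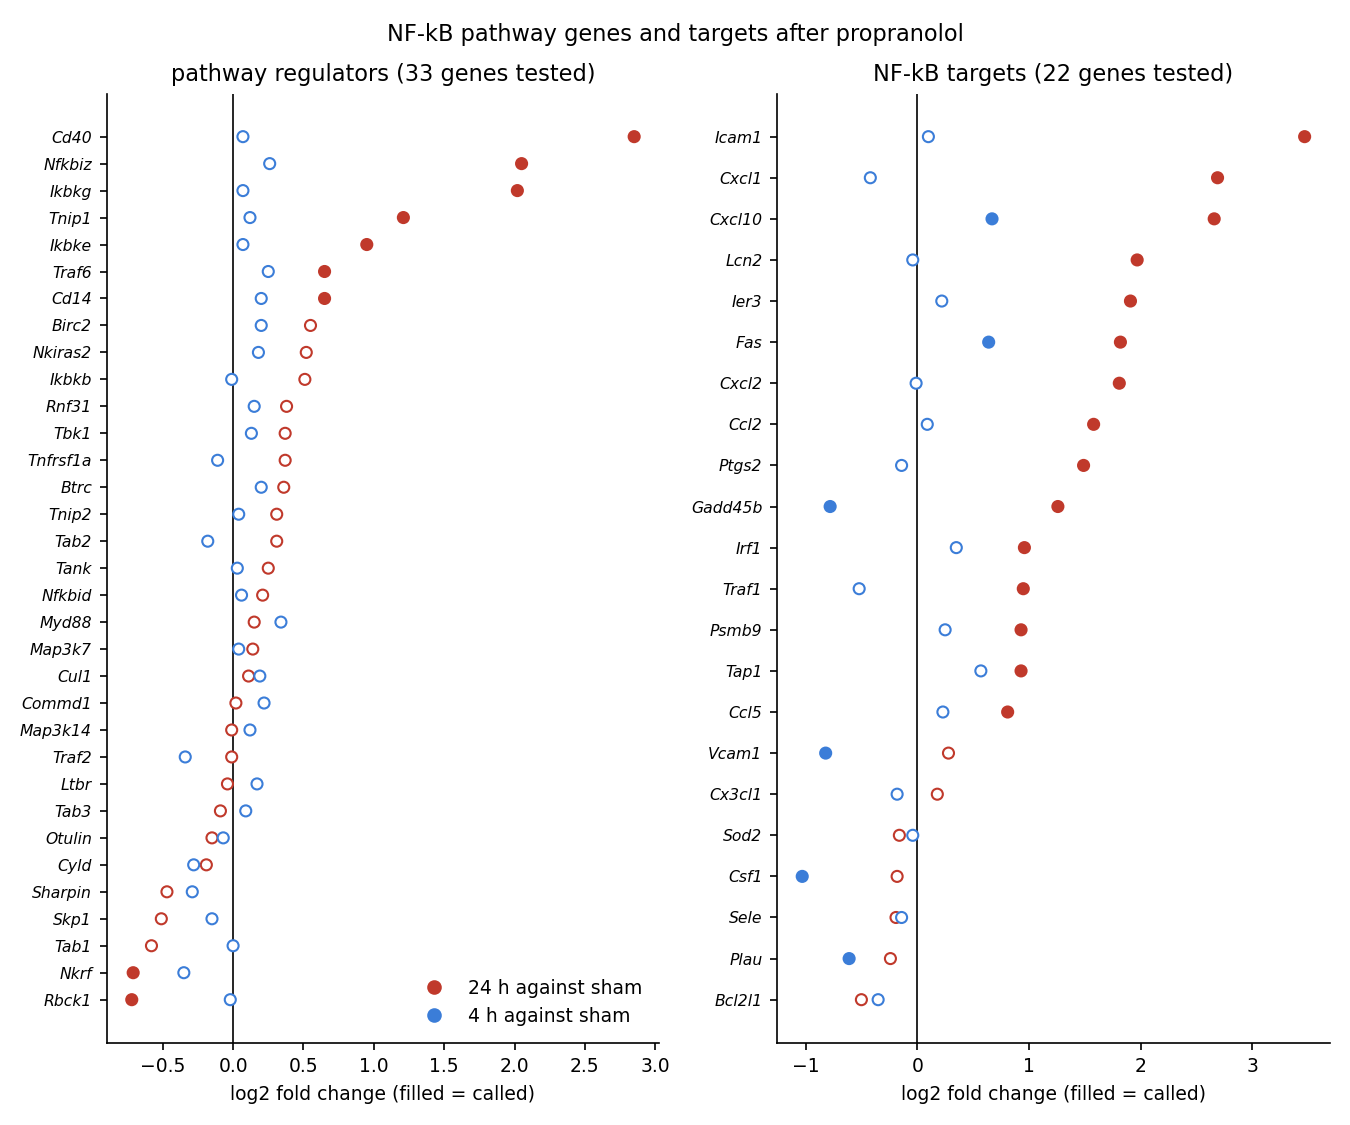
Log2 fold change (x axis) of each tested pathway regulator (left, 33 genes) and known NF-kB target (right, 22 genes) at 24 h against sham (red) and 4 h against sham (blue), ordered by the 24 h value; filled points were called. At 24 h 7 regulators and 15 targets are filled on the right of 0, and at 4 h 0 regulators and 6 targets are filled.

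The genes whose signal followed that of Nfkbia, the member with the largest change, most closely over the 9 arrays were Ier3 (Pearson r = 0.9991), Plxnd1 (0.9982), Usp18 (0.9978), Lmo2 (0.9976) and Blvrb (0.9959). Their own changes at 24 h were 1.91, 1.49, 3.17, 1.93 and 1.78 on the log2 scale, against 0.22, 0.14, 0.42, 0.21 and 0.12 at 4 h. Usp18 was detected on 1 of 3 sham arrays. Over the same arrays 618 of 7968 other genes had an r above 0.95, and for Nfkbia the 9 points fall into 2 levels, 24 h and the rest. Among the members r with Nfkbia was 0.98 for Relb, 0.977 for Rela, 0.937 for Bcl3, 0.887 for Nfkbie, 0.731 for Tnfaip3, 0.29 for Nfkb2 and -0.454 for Nfkbib.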

How the data were processed

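Processed bead-array files of 9 SVR arrays were used, with 3 arrays per group. The authors amplified and labelled pooled RNA, hybridized and scanned it, and deposited for each probe the intensity (mean bead brightness, without normalization), the p-value for its detection over negative-control beads, and the bead standard error and bead number (other measures). They also deposited a table of intensity scaled by a constant per array. The scanner software is not given in the sources used here. Gene names came from the platform annotation, updated by gene number for 23962 of 23978 named probes.

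Intensities were background-corrected by normexp from the detection p-values and quantile normalized (neqc, offset 16, limma 3.58.1, R 4.3.3). Testing was limited to probes with a detection p below 0.05 throughout the 3 arrays of some group, and the brightest tested probe stood for a gene. One linear model over all 11653 tested probes and 3 groups gave moderated tests with Benjamini-Hochberg adjustment. It was run on simulated log2 values and judged on the adjusted p alone, which does not check background handling or the fold limit. The first criterion of that check failed and was replaced after this was seen. All 1967 genes past 1.5-fold at 24 h also passed the adjusted p, so the fold limit set the calls. Named genes were every member, the 5 largest called rises and falls of each list, and the 5 genes most like the member with the largest change; Traf6, Cd14, Ikbkb, Map3k14, Sele, Sod2, Bcl2l1, Traf1, Cxcl2 and Ptgs2 were named after their values were seen. Members and lists were chosen with earlier results of these data known. Arrays of a group differed by more than bead noise, so none was taken for a copy. Same-numbered arrays were not paired. Alternatives covered background, scaling, filter, probe choice, test, replicate block and leaving out each array; centring on the median of the tested probes was added after seeing the data. Figures were drawn with matplotlib.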

Additional observations from a re-analysis of the deposited data

Results flagged for a closer look

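Of the members, Nfkbia, Relb and Nfkbie had a change from sham at 24 h that differed from the change at 4 h, by limma's test of 24 h against 4 h over all 9 arrays. On the log2 scale the difference was 1.42 for Nfkbia (adjusted p = 4.7e-07), 1.22 for Relb (adjusted p = 6.9e-06) and 0.72 for Nfkbie (adjusted p = 0.00029). For Tnfaip3 the fitted difference was 0.67 (adjusted p = 0.0032), but it was not detected on any 4 h array and was tested only through its 24 h arrays. Its bound, at least 1.34-fold on the background-corrected scale, does not reach 1.5-fold.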

How the results depend on the processing

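Nfkbia and Relb were called at 24 h against sham and against 4 h in all 21 alternative settings counted for them. The count of members called at 24 h against sham was 3 to 4 when single arrays were left out and 2 to 4 over those settings. Counts of members and listed genes that moved by over 1.5 times, with the cause not tested, were the following. For 24 h against 4 h, members called (4) became 2 without background correction, after division by the 75th percentile, in the authors' table, with an offset of 50, at a detection p under 0.01 on all arrays (4 tested) and at 2-fold, and 3 to 4 with single arrays left out. At 24 h against sham, regulators called (9) became 5 without background correction and 4 in the authors' table and at 2-fold, while targets called (15) became 8 after the 75th percentile and 6 at the stricter detection limit, where 13 were tested. Against 4 h the targets called (15) became 8 and 7 under those settings, all of them higher. The share of all genes called higher was 10.6%, 4.54% and 10% in that order. At 4 h against sham, targets called (6) became 2 without background correction, 3 after the 75th percentile, 3 in the authors' table, 3 with an offset of 50 and 1 at 2-fold. Over all genes, the called count at 24 h against sham (1967) became 992 without background correction, 1116 after the 75th percentile, 1048 in the authors' table and 645 at 2-fold. At 24 h against 4 h (1432) it became 683, 760, 708 and 443 in that order, and at 4 h against sham (323) 105, 122, 117 and 57, with 166 at an offset of 50.

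Directions that turned were all of uncalled differences. Nfkbib at 24 h against 4 h was 0.04 with median centring, 0.05 in the authors' table and 0.01 without the second 24 h array. Nfkb2 at 24 h was -0.01 after the 75th percentile and -0.07 to 0.24 with single arrays left out, lowest without the first sham array. At 4 h, Bcl3 was 0 after the 75th percentile and after centring on tested probes, 0.02 in the authors' table and -0.04 to 0.03 with single arrays left out (0.01 without the first sham array). Likewise at 4 h, Nfkb2 ranged over -0.21 to 0.09 and Relb over -0.17 to 0.01, each highest without the third sham array. Rela at 24 h passed 1.5-fold (0.61) without the third sham, the second 24 h or the third 24 h array. Without the array on the second BeadChip, Nfkbia was 1.57, Relb 1.15 and Nfkbie 0.61.

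Centring on the median of all probes gave a prior of 1090 degrees of freedom, against 4.07 in the reported fit, so it is left out of these counts of settings. Deviations of same-numbered arrays had correlations of -0.0217 to 0.00572, and with the replicate number as a block 3 members were called at 24 h, 0 at 4 h and 4 at 24 h against 4 h. Signals near background (Nfkb2, Nfkbib, Nfkbie, Bcl3, Tnfaip3, Birc3) limit what can be measured.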

Other observations

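Some known NF-kB targets were lower at 4 h and higher at 24 h than in sham; they were picked out after their values were seen. Gadd45b, a stress response gene, read 101 to 112 at 4 h and 121 to 139 in sham, a difference of -0.78 on the log2 scale (adjusted p = 8.8e-05 by limma), and differed from sham by 1.26 at 24 h (adjusted p = 3.2e-07). Its 4 h and sham signals lie close to background, so the size of its fall depends on how background was handled. Cxcl1 was at -0.42 at 4 h (adjusted p = 0.0049, under 1.5-fold) and at 2.69 at 24 h. Traf1, an adaptor of TNF receptors, was at -0.52 at 4 h (adjusted p = 0.0077, under 1.5-fold) and at 0.95 at 24 h (adjusted p = 3.4e-05). For Gadd45b and Cxcl1 the 24 h signal exceeded that at 4 h by 2.04 and 3.11 on the log2 scale. Cxcl2 and Ptgs2, a chemokine and the inducible cyclooxygenase, were detected on no sham array and, on the background-corrected scale, were at least 2.59-fold and 2.4-fold higher at 24 h.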
